A study of Mus musculus with 3 samples.

Results

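The cells described here are progenitors of innate lymphoid cells (ILCs) from mice with and without the transcription factor TCF-1, the product of Tcf7, after cells carrying transcripts of other blood lineages had been set aside. ILCpro_KO came from Tcf7EGFPnull/- mice and ILCpro_WT from Tcf7EGFP/+ mice, which carry an EGFP reporter at Tcf7 on a single allele, so that the control is itself heterozygous. Both were sorted from C57BL/6 bone marrow as lineage-negative, Kit+, 2B4+, a4b7+ and Tcf7 reporter-positive cells and made into 1 library of 10x Chromium v2 chemistry each. The labels give neither the number nor the age of the mice, nor which piece of Tcf7 the null alleles lack, and their source field calls both populations EILP (early ILC progenitors). Cells were kept when they held at least 500 genes, at most 10% mitochondrial UMIs (unique molecular identifiers, the counted transcripts) and few raw UMIs of 20 lineage genes in 7 groups; the cells were thus chosen by measured counts of those genes. This left 331 of 716 ILCpro_KO cells and 1627 of 1834 ILCpro_WT cells, together 1958 of the 3362 cells of the series.

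ILCs are tissue lymphocytes without rearranged antigen receptors. They arise in bone marrow from lymphoid progenitors that switch on a sequence of transcription factors, among them Nfil3, Tox, Id2, Tcf7, Gata3, Zbtb16 and Rora, while the receptors and factors of earlier progenitors are turned down. TCF-1 is an HMG-box protein that binds DNA at the motif CTTTGAT and can act with beta-catenin or with Groucho-type co-repressors, and it is known to be needed for early ILC and T cell development.

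The kept cells held 1707866 UMIs in ILCpro_KO and 5230697 in ILCpro_WT, and the median cell had 4627 against 2802 UMIs and 1823 against 1166 genes. Levels are UMIs scaled to the total of the library's kept cells (CPM), with exact Poisson intervals at 95% in parentheses. A log2 ratio was taken as ILCpro_KO over ILCpro_WT after 10 CPM had been added to both, whereas a fold is the plain ratio of CPM with an exact conditional binomial interval. Both kinds of interval describe counting error and nothing else. With a single library per genotype no difference below has a replicate check, and fewer cells of a kind cannot be told apart from less RNA per cell. The 2 libraries shared 1 cell barcode as deposited and 0 among kept cells. Ribosomal protein genes took 34.6% of kept UMIs in ILCpro_KO and 38.8% in ILCpro_WT.

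The lineage rule removed 385 of 716 ILCpro_KO cells and 202 of 1829 ILCpro_WT cells of good quality, and it chose the cells by the very transcripts that it then lowers, so its own genes are given as a description. The primary granule group (Elane, Mpo, Prtn3 and Ctsg, enzymes of neutrophil and monocyte precursors) failed 249 ILCpro_KO and 107 ILCpro_WT cells. MHC class II genes failed 115 and 79 cells, lysozyme with calprotectin 45 and 8, the B cell receptor genes 43 and 16, the T cell receptor complex genes 25 and 5, and the basophil proteases 23 and 7. At the granule threshold 28 ILCpro_KO cells lay just inside and 28 just outside, against 28 and 21 in ILCpro_WT. The removed cells were deeper, with a median of 6330 UMIs in ILCpro_KO and 3779 in ILCpro_WT, and a limit on raw UMIs is stricter for deeper cells. With every cell thinned at random to 1000 UMIs the same limits passed 75.6% of ILCpro_KO and 96.0% of ILCpro_WT cells, and 36.7% and 74.4% had no UMI of any of the 20 genes.

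Some lineage transcript remained in the kept cells, always within the limits. The granule group summed to 213 CPM in ILCpro_KO and 109 in ILCpro_WT, down from 2816 and 388 before the rule. Among those of the 20 with a mean of at least 10 CPM, Ctsg, at 36.3 against 12.6 CPM, was the 1 gene that still stood at least 2-fold higher on the log2 scale used below, where 18 had done so before. Elane (14.1 against 1.53 CPM) and S100a8 (11.1 against 0 CPM) differed by as much but lay under that minimum. S100a8 and S100a9, the calprotectin subunits, had 19 and 17 UMIs in ILCpro_KO and 0 in ILCpro_WT. The part that these transcripts, depth or the choice of cells play in the differences below was not tested.

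Of 27998 genes, 15083 had a UMI in a kept cell and 7558 reached a mean of 10 CPM over the 2 libraries and were compared. In ILCpro_KO 62 of these (0.820%) were lower by 2-fold or more and 72 (0.953%) were higher by as much, and 87.8% lay within 0.5 of 0 on the log2 scale. Calls at 2-fold, here and below, are made on that scale with 10 CPM added, so a plain fold just over 2 can fall short. A gene under 10 CPM in 1 library could be compared only through the other, so its direction was fixed. The median log2 ratio of all compared genes was 0.12. Scaling by median-of-ratios size factors moved that median by over 0.1, to -0.00, and turned the calls to 85 lower and 45 higher, so that 34.6% of calls were higher against 53.7% with totals.

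**Figure D1:**
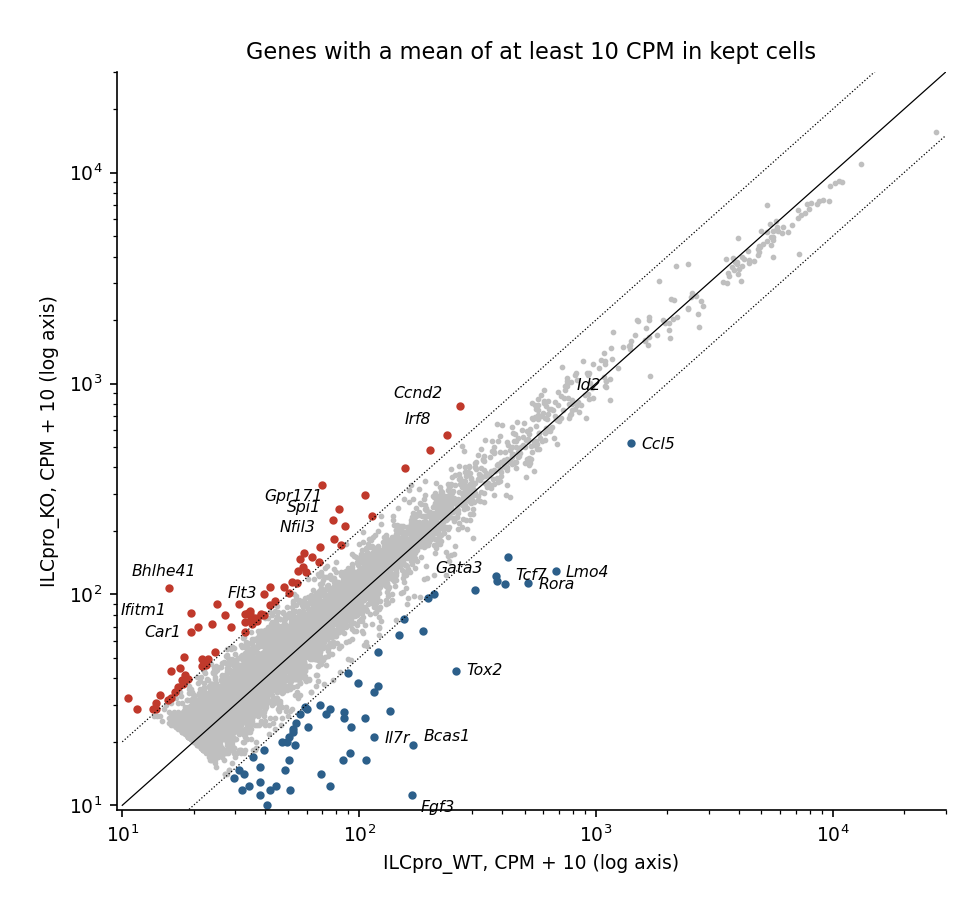
Each point is 1 of 7558 genes, with its level in ILCpro_WT on the horizontal and in ILCpro_KO on the vertical axis (CPM with 10 added, log axes); the solid line marks equality and the dotted lines 2-fold. Blue points are the 62 genes at least 2-fold lower in ILCpro_KO, led by Fgf3 and Bcas1, and red points the 72 at least 2-fold higher, led by Bhlhe41.

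The level of Tcf7 (ENSMUSG00000000782, minus strand of chromosome 11 from 52252371 to 52283014 in GRCm38) was 101.9 CPM (87.3 to 118) in kept ILCpro_KO cells and 403 CPM (386 to 420.2) in kept ILCpro_WT cells. This is 3.95-fold lower (3.38 to 4.64), with a log2 ratio of -1.88. Tags from outside the deleted piece check nothing, so the 174 Tcf7 UMIs of ILCpro_KO, spread over 111 cells, do not bear on the genotype. The kept cells were 46.2% of good-quality ILCpro_KO cells and held 39.0% of their UMIs, but 69.3% of their Tcf7 UMIs, and without the lineage rule the log2 ratio was -2.47. Within 500 kb of Tcf7 lie 17 other genes, of which 9 could be compared. Of these 9 genes 0 differed 2-fold, beside 0.820% lower and 0.953% higher over all compared genes. The log2 ratios of the 9 ran from -0.54 for Gm26551, which starts 13.5 kb away, to 0.49 for Vdac1.

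Among the transcription factors of the ILC lineage some were low without TCF-1 and others were not. Of 18 listed factors 17 could be compared, and Zfp683 had 0 UMIs in both libraries. In ILCpro_KO 9 were lower by 2-fold or more, 1 was higher by as much and 7 were neither, beside 0.820% lower and 0.953% higher over all compared genes. The 9 include Tcf7, the altered gene itself, and Bcl11b, which reached a mean of 10 CPM only through ILCpro_WT and so had to be low. Their median log2 ratio was -1.49 beside 0.12 for all compared genes, and their summed level was 3486 against 5502 CPM. This median stayed between -1.81 and -1.23 over 18 alternative settings. The list was drawn up with results of these libraries known.

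The lowest of the 17 was Bcl11b, a zinc-finger factor of T cells and of ILC2 precursors, at 6.44 CPM (3.22 to 11.5) in ILCpro_KO and 97.3 (89.04 to 106) in ILCpro_WT. Only 11 UMIs in 7 cells stood against 509 UMIs in 277 cells, a 15.1-fold difference (8.37 to 30.5). Tox2, an HMG-box relative of the ILC regulator Tox, stood at 33.4 CPM (25.3 to 43.2) against 246 (233 to 260.3), 7.38-fold lower (5.66 to 9.80). Lmo4, a LIM-only adaptor of transcription complexes, stood at 119 CPM (104 to 137) against 666 (644 to 688), 5.57-fold lower (4.84 to 6.45). For each of the 3 genes the intervals of the 2 libraries lie far apart. All 3 remained at least 2-fold lower under each of 18 settings.

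The promoters of these 3 genes are shown because TCF-1 binds DNA directly and they head the list of low factors by log2 ratio. The sequences are taken from the 250 bases before a RefSeq transcript start (GRCm38.p6), 5' to 3' on the gene's strand, and capitals mark a match to CTTTGAT or to its reverse complement ATCAAAG. Bases that GENCODE vM21 counts as an exon of the same gene are left out, 188 for Bcl11b and 90 for Tox2. Shown are chr12:108003603-108003664 on the minus strand for Bcl11b, chr2:163225203-163225362 on the plus strand for Tox2, where the start is internal to the longest annotated gene span, and chr3:144205256-144205505 on the minus strand for Lmo4.
Bcl11b: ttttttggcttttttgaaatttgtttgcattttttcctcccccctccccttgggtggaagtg
Tox2: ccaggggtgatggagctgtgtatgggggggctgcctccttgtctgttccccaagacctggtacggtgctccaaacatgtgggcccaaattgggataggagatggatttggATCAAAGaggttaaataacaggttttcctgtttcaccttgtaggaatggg
Lmo4: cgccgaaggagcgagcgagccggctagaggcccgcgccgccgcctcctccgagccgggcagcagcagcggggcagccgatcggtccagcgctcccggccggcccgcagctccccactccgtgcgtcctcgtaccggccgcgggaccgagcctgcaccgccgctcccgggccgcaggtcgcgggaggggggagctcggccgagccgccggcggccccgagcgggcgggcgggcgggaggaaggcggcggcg
The Tox2 window holds ATCAAAG at 140 bases before its start, 2 of its 5 windows hold a match and the first of these is shown, and no window of Bcl11b or Lmo4 before its start holds one. Over windows from 250 bases before to 50 after a start, the motif on either strand occurs in 3.73% of all 32851 windows and, counting any window of a gene, in 2.85% of 5850 compared genes. Of the 2-fold lower genes with a window 1 of 38 held it (Tox2), and of the higher genes 1 of 48 (Flt3). A match describes these letters only.

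The other low factors act at different steps of the pathway. Rora, a nuclear receptor needed for ILC2s, stood at 103 CPM (88.4 to 119) against 506 (487 to 525), and Gata3, a zinc-finger factor shared by ILC and T cell development, at 105 (90.6 to 122) against 374 (357 to 390.5). Zbtb16, which encodes the committed ILC precursor factor PLZF, stood at 94.9 CPM (80.8 to 111) against 299.8 (285 to 315). Ikzf2, the Ikaros family member Helios, stood at 141 (124 to 160.1) against 414 (396 to 431), and Ets1, a lymphoid ETS factor, at 18.2 (12.3 to 25.8) against 125 (115 to 135). Their log2 ratios were -2.19, -1.73, -1.56, -1.49 and -2.26. All of them stayed at least 2-fold lower under 18 settings.

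The other compared ILC factors did not differ by 2-fold in either direction, except for Nfil3. Id2, an inhibitor of E protein binding to DNA, stood at 841 CPM (798 to 885) in ILCpro_KO and 755 (732 to 779) in ILCpro_WT, a log2 ratio of 0.15 whose sign turned under 3 of 18 settings. Tox stood at 239 against 219.7 CPM, with a log2 ratio of 0.12 that turned under 3 settings, median-of-ratios scaling among them. Runx3, a Runt factor of cytotoxic and ILC lineages, stood at 1053 against 745 CPM. Nfil3, one of the earliest regulators of ILC fate, was the 1 factor at least 2-fold higher, at 174 CPM (155 to 195) against 68.1 (61.2 to 75.5). Its log2 ratio of 1.24 became 0.96 with no lineage rule, short of 2-fold, and it also fell short with 50 CPM added. Lef1, the nearest relative of TCF-1 and a binder of the same motif, stood at 108 (93.3 to 125) against 50.9 (44.9 to 57.4), a log2 ratio of 0.96 that passed 1 under 3 of 18 settings. Below 0 but short of 2-fold were Maf, a factor of T cells and ILCs, at 46.8 against 98.5 CPM (-0.93, or -1.05 when taken from the median of all genes), and Sox4, an HMG-box factor, at 281 against 422 CPM (-0.57). The E proteins that Id2 opposes lay near 0, with Tcf3 at 99.5 against 119.9, Tcf4 at 116 against 95.02 and Tcf12 at 56.8 against 59.8 CPM.

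**Figure D2:**
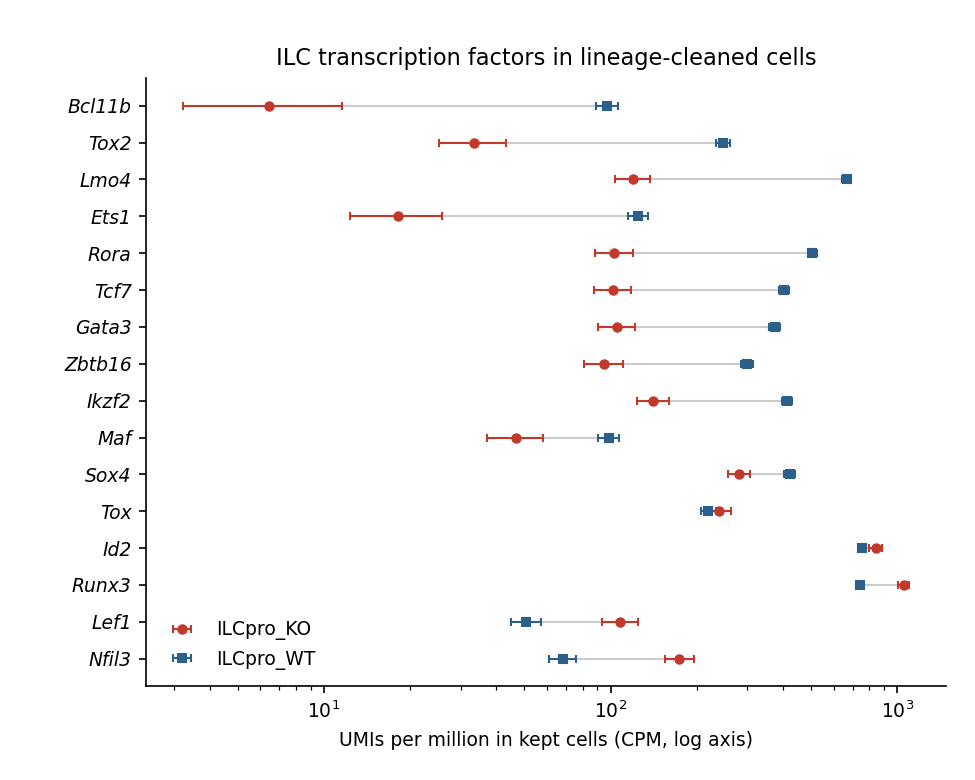
Levels of 16 compared ILC transcription factors in kept cells (CPM, log axis), with red circles for ILCpro_KO, blue squares for ILCpro_WT and bars for exact 95% Poisson intervals; genes run from the lowest log2 ratio (Bcl11b, -2.71) at the top to the highest (Nfil3, 1.24) at the bottom. The intervals of the top 9 genes do not meet, while those of Tox overlap.

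Shares of cells with a UMI were compared after thinning each cell to 1000 UMIs, which left out 3 shallower ILCpro_WT cells. A Rora UMI was found in 7.25% of ILCpro_KO cells (Clopper-Pearson 4.70 to 10.6) and 33.7% of ILCpro_WT cells (31.4 to 36.1), and without thinning in 15.4% and 52.6%. Cells removed for lysozyme, calprotectin or granule transcripts, called background cells here, showed Rora in 0.373% of 268 ILCpro_KO and 2.70% of 111 ILCpro_WT cells. Whether a UMI in them is free RNA or their own transcript was not tested. Their median depth before thinning was 7349.5 and 4454 UMIs, against 4627 and 2802 in kept cells. The kept cells of ILCpro_KO therefore carried Rora above that background, and in fewer cells than ILCpro_WT. Tox2 had a UMI in 3.32% of cells (1.67 to 5.87) against 21.6% (19.6 to 23.6), and unthinned in 8.16% and 37.1%. Its UMIs were found in 0 of 268 background cells of ILCpro_KO, where 3 counts would be a share of 1.12% of cells with a UMI and the Clopper-Pearson limit is 1.37%, and in 3.60% of those of ILCpro_WT. Zbtb16 had one in 10.3% (7.22 to 14.1) against 24.3% (22.3 to 26.5), beside 2.24% and 1.80% of background cells, and unthinned in 25.4% and 49.0%.

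For Gata3, Ikzf2 and Lmo4 the ILCpro_KO share lay near its background. Gata3 was found in 9.37% of kept ILCpro_KO cells (6.45 to 13.0) and 5.97% of background cells (3.45 to 9.51), against 29.9% of ILCpro_WT cells. For Lmo4 these shares were 10.9% (7.73 to 14.7) and 9.70% (6.44 to 13.9), against 32.7%, and for Ikzf2 11.2% (7.99 to 15.1) and 8.58% (5.52 to 12.6), against 30.7%. The unthinned shares of ILCpro_KO and ILCpro_WT were 35.6% and 54.7% for Gata3, 33.5% and 45.7% for Lmo4, and 34.7% and 57.8% for Ikzf2. For these 3 genes the intervals of kept and background cells of ILCpro_KO overlapped at this depth. In the 45 ILCpro_KO cells removed for lysozyme or calprotectin, Gata3 and Lmo4 were each found in 4.44% (0.543 to 15.1). Ikzf2 was found in 2.22% (0.0562 to 11.8) of those 45 cells. These shares were lower than in kept cells, but their wide intervals overlapped those of kept cells too. The background cells may express these genes themselves, so the overlap does not make the UMIs of kept cells free RNA. Id2 was found in 48.0% (42.5 to 53.6) of ILCpro_KO and 46.1% (43.6 to 48.5) of ILCpro_WT cells, against 25.7% and 14.4% of background cells, and unthinned in 75.8% and 67.4%.

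Counted per cell, fewer ILC factors were found together in ILCpro_KO. Of the 17 listed factors other than Tcf7, a kept ILCpro_KO cell thinned to 1000 UMIs held a UMI of 2.42 ± 1.73 on average (SD over 331 cells) and an ILCpro_WT cell 3.61 ± 2.43 (SD over 1624 cells), with medians of 2 and 3. At least 3 factors were found in 42.6% (37.2 to 48.1) against 62.1% (59.7 to 64.5) of cells, and at least 5 in 9.67% (6.71 to 13.4) against 31.8% (29.6 to 34.2). The share with at least 3 ran from 36.3% to 47.1% in ILCpro_KO and from 60.6% to 62.6% in ILCpro_WT over 20 further random thinnings, so the ranges did not meet. At 2000 UMIs it was 68.0% against 77.5%. The gap lay at the upper end, since at least 1 factor was found in 88.8% and 92.7% of cells.

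**Figure D3:**
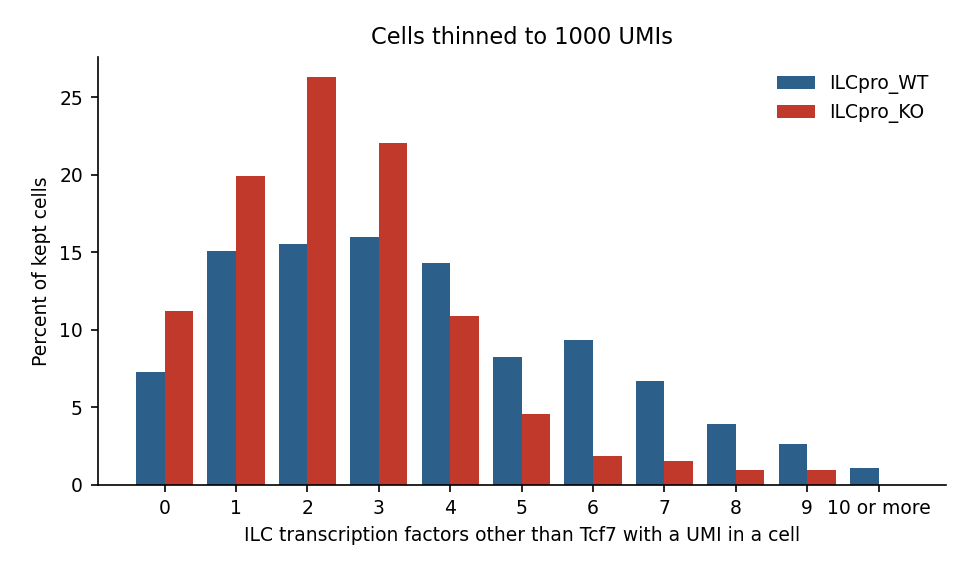
Percent of kept cells (vertical axis) by the number of ILC transcription factors other than Tcf7 with a UMI after thinning to 1000 UMIs (horizontal axis), blue for 1624 ILCpro_WT and red for 331 ILCpro_KO cells. ILCpro_KO cells gather at 1 to 3 factors, and at least 5 factors were found in 9.67% of them against 31.8% of ILCpro_WT cells.

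The shares of cells with other ILC transcripts were also taken apart by whether the cell had an Id2 UMI. In ILCpro_WT a Rora UMI was found in 49.1% of 748 cells with an Id2 UMI and 20.7% of 876 without, while in ILCpro_KO it was found in 11.3% of 159 and 3.49% of 172. Gata3 went from 38.5% with Id2 to 22.6% without in ILCpro_WT, and from 8.81% to 9.88% in ILCpro_KO. Lmo4 went from 48.8% to 18.9% in ILCpro_WT and from 12.6% to 9.30% in ILCpro_KO. Id2 itself had a UMI in 25.7% of ILCpro_KO background cells, and the ILCpro_KO shares of Gata3 and Lmo4 overlapped those of such cells. The values are therefore shares of cells with a UMI and not of cells expressing a gene. All of these shares were read at 1000 UMIs a cell, and the difference between the libraries in how the genes go together was not tested.

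Of 19 listed secreted and effector genes 5 could be compared and 14 fell under the minimum. All 5 were at least 2-fold lower in ILCpro_KO, but Fgf3, Arg1 and Igfbp7 reached a mean of 10 CPM only through ILCpro_WT and so had to be low, and nothing is read from the count. Fgf3, a fibroblast growth factor gene, had 2 UMIs in ILCpro_KO (1.17 CPM, 0.142 to 4.23) and 823 UMIs in 422 cells of ILCpro_WT (157 CPM, 147 to 168). That is a ratio of 134-fold with a counting interval from 37.1 to 1111. Arg1, the arginase of ILC2s and their precursors, had 3 UMIs against 215. Igfbp7, a secreted binding protein, had 7 UMIs against 309. Ltb, the membrane lymphotoxin chain, stood at 56.8 CPM (46.1 to 69.3) against 177 (165 to 188), and the chemokine gene Ccl5 at 513 (480 to 548) against 1398 (1366 to 1430). The cytokine genes Il13, Il22 and Il17a of mature ILCs had 0 UMIs in ILCpro_KO and at most 1 in ILCpro_WT, which is under the floor of 3 UMIs (1.76 and 0.574 CPM). Il4 had 0 against 6 UMIs, Tnf 0 against 5 and Ifng 2 against 0, all under the minimum for comparison.

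Receptors and surface molecules differed in both directions. Il7r, which encodes the alpha chain of the interleukin 7 receptor, stood at 11.1 CPM (6.70 to 17.4) against 106 (97.1 to 115), 9.50-fold lower (6.03 to 15.9), while Il2rg, its signalling partner, stood at 59.7 against 111. Il18r1, an interleukin 18 receptor chain, stood at 134 against 230.2 CPM. Il1r1 (33.4 against 6.12) and Il4ra (24.6 against 6.69), receptors for interleukins 1 and 4, were at least 2-fold higher. Both reached the minimum only through ILCpro_KO and so had to be high. Of 12 compared cytokine receptors 1 was 2-fold lower and 2 were higher, beside 0.820% and 0.953% of all compared genes. The median log2 ratio of the 12 was 0.33 and turned negative with a minimum of 25 CPM.

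Among surface molecules Icos, a costimulatory receptor, stood at 4.68 against 38.8 CPM, Pdcd1, the PD-1 gene that marks ILC precursors, at 54.5 (43.95 to 66.7) against 137 (127 to 148), and Thy1 at 32.2 against 79.3. In all 3 of the 10 compared were 2-fold lower and 1 higher, beside 0.820% and 0.953% of all compared genes. Icos reached the minimum only through ILCpro_WT and so had to be low. The median log2 ratio of the 10 was -0.39 and turned positive in non-cycling cells and with a minimum of 25 CPM. The higher molecule was Cd244, which encodes the sorted 2B4, at 119 against 45.3 CPM. The other genes of the sort were Kit, at 32.8 against 73.2 CPM, and the a4b7 chains Itga4 (643 against 488) and Itgb7 (172 against 101); a gate on these proteins selected the cells, so their levels describe the gate as well.

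Of 16 listed genes shared with T cells 7 could be compared. Txk and Skap1 were lower by 2-fold or more and 0 were higher, beside 0.820% and 0.953% of all compared genes. Both reached the minimum only through ILCpro_WT and so had to be low. Txk, a Tec kinase, stood at 7.61 CPM (4.05 to 13.0) against 81.3 (73.7 to 89.4), and Skap1, an adhesion adaptor, had 2 UMIs against 147. The kinase gene Lck stood at 92.5 against 144 CPM. The kept cells of ILCpro_KO, from which 25 cells had been removed for T cell receptor complex transcripts, held 15.1% of that library's Bcl11b UMIs and 8.70% of its Skap1 UMIs. The log2 ratio of Bcl11b was -1.90 before and -2.71 after the rule, and that of Skap1 was -1.20 before and -1.77 after.

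Further genes among the 15 lowest were Bcas1, a gene expressed in glia, with 16 UMIs against 834 (9.37 against 159 CPM), and Cacna1e, a calcium channel subunit, with 4 UMIs against 340. Bcas1 overlaps an antisense gene, Bcas1os2, that was also low (5.27 against 28.3 CPM), and whether the counting used strand is not given in the sources used here. Itgb3, an integrin chain, stood at 15.8 against 95.6 CPM, Serpine2, a protease inhibitor, at 6.44 against 75.5, and Socs1, a feedback inhibitor of cytokine signalling, at 13.5 against 82.8. Bcas1, Bcas1os2, Cacna1e and Serpine2 reached the minimum only through ILCpro_WT and so had to be low. Hes1, a Notch target, stood at 13.5 (8.54 to 20.2) against 51.04 CPM (45.1 to 57.5). Hes1 was the 1 of 4 compared Notch pathway genes to differ 2-fold, beside 0.820% lower and 0.953% higher over all compared genes. Notch1 stood at 21.7 against 21.6 and Rbpj, the pathway's DNA-binding factor, at 56.2 against 68.6 CPM.

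Of 16 listed TCF and Wnt feedback genes 8 reached the minimum, with a median log2 ratio of 0.67. In these 8 genes 0 differed by 2-fold in either direction, beside 0.820% lower and 0.953% higher over all compared genes. Axin2, the best-known feedback gene, had 0.586 against 5.16 CPM and was under the minimum. Nkd1 and Tcf7l1 had 0 UMIs in ILCpro_KO but only 4 and 6 in the larger ILCpro_WT, too few to compare. The partner gene Ctnnb1 (beta-catenin) stood at 87.2 CPM (73.8 to 102) against 50.9 (44.9 to 57.4), and Myc, a growth regulator, at 57.4 (46.6 to 69.9) against 28.3 (23.9 to 33.2).

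The genes that were higher without TCF-1 included those of earlier lymphoid progenitors. Of 13 early lymphoid genes with counts here, 9 could be compared, 4 were at least 2-fold higher and 0 lower, and the median log2 ratio was 0.54. Over all compared genes 0.953% were higher and 0.820% lower by as much, with a median of 0.12. Flt3, the cytokine receptor of multipotent and lymphoid progenitors, stood at 80.2 CPM (67.4 to 94.8) against 15.1 (11.96 to 18.8), 5.31-fold higher (3.998 to 7.10), with UMIs in 89 ILCpro_KO cells. Dntt, the terminal transferase of antigen receptor assembly, stood at 98.95 (84.6 to 115) against 31.9 (27.3 to 37.1), and Mef2c, a lymphoid progenitor factor, at 475 (443 to 509) against 188 (177 to 200.5). Lmo2, a progenitor relative of Lmo4, stood at 40.4 against 8.22 CPM. It reached the minimum only through ILCpro_KO and so had to be high. The recombinase genes Rag1 and Rag2 had 0 and 1 UMI in ILCpro_KO and 5 and 8 in ILCpro_WT, and could not be compared.

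The ALP library of the series, all-lymphoid progenitors of Tcf7EGFP/+ mice sorted as a4b7- Flt3high IL-7Ra+, gives the level of these genes one stage earlier. After the same rule its 685 kept cells showed Flt3 at 317 CPM and Il7r at 164 CPM, so that ILCpro_KO stood between ALP and ILCpro_WT for Flt3 and below both for Il7r. Flt3 and IL-7Ra were gated in ALP, which bears on those 2 levels. Of genes outside that gate, Dntt stood at 1559, Mef2c at 848 and Lmo2 at 153 CPM in ALP, and ILCpro_KO lay between ALP and ILCpro_WT for each. Not every gene higher in ILCpro_KO lay between them. Nfil3 and, named below, Spi1, Ccnd2 and Gpr171 stood at 17.8, 133, 414 and 168 CPM in ALP. Their ILCpro_KO levels of 174, 215, 771 and 244 CPM were above both ALP and ILCpro_WT.

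Shares of cells in this group stood closer to background. Thinned to 1000 UMIs, Flt3 was found in 7.25% (4.70 to 10.6) against 1.42% (0.8999 to 2.12) of cells, but also in 4.10% (2.07 to 7.23) of the ILCpro_KO background cells, and unthinned in 26.9% and 4.61%. Mef2c was found in 32.6% (27.6 to 38.0) against 15.1% (13.4 to 16.9), with 28.4% and 26.1% in the background cells, and unthinned in 75.5% and 32.8%. In ILCpro_KO neither share stood clear of these 268 background cells. In the narrower set of 45 ILCpro_KO cells removed for lysozyme or calprotectin, Mef2c was found in 4.44% (0.543 to 15.1), below its share in kept cells, and Flt3 in 0, with a Clopper-Pearson limit of 7.87% that is above the share in kept cells. Nfil3 was found in 18.7% (14.7 to 23.4) against 5.85% (4.76 to 7.10), with 12.3% (8.63 to 16.9) and 7.21% in the background cells, so its intervals overlapped as well, and unthinned in 50.8% and 15.1%. In the 45 cells Nfil3 was found in 4.44% (0.543 to 15.1), an interval that only just met that of kept cells.

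Spi1 and Irf8, factors of myeloid and dendritic cells, were also at least 2-fold higher in the kept cells. Spi1, which encodes the myeloid and early lymphoid factor PU.1, stood at 215 CPM (193 to 238) against 67.3 (60.4 to 74.7), 3.19-fold higher (2.75 to 3.71). Irf8, an interferon regulatory factor of dendritic cells and monocytes, stood at 562 (527 to 599) against 224 (212 to 237). It was found after thinning in 34.7% (29.6 to 40.1) against 13.6% (11.98 to 15.4) of kept cells and in 53.4% and 46.8% of background cells, and unthinned in 60.4% and 25.6%. Batf3 and Runx2, at log2 ratios of 0.63 and 0.74, and Tcf4, at 0.26, did not reach 2-fold, and Cebpa, a granulocyte and monocyte factor, was under the minimum at 12.9 against 6.12 CPM. Of 16 neutrophil and monocyte genes outside the rule only Csf2ra and Clec12a reached the minimum, at 26.9 against 19.7 and 16.4 against 17.8 CPM, and the 16 summed to 99.5 against 61.8 CPM. Among conventional dendritic cell genes Xcr1, Clec9a and Clec10a had 0 UMIs in ILCpro_KO and 1, 1 and 0 in ILCpro_WT, and Batf3 stood at 40.4 against 22.6 CPM. Outside the lists, and picked after their values were seen, several genes known from phagocytes were at least 2-fold higher. Itgam, the integrin chain CD11b, stood at 21.7 against 5.54 CPM, Mpeg1, a pore-forming protein of macrophages, at 23.4 against 4.40, and Ncf1, a subunit of the phagocyte oxidase, at 141 against 52.96 CPM. Itgam and Mpeg1 reached the minimum only through ILCpro_KO and so had to be high. The cathepsin gene Ctsh stood at 43.3 against 14.7 CPM, Irf5, an interferon regulatory factor, at 35.7 against 11.7, and Ly86 at 72.02 against 24.1. The part of residual myeloid cells in these levels was not tested.

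The highest gene by log2 ratio was Bhlhe41, a basic helix-loop-helix repressor, at 97.2 CPM (83.0 to 113) against 5.74 (3.87 to 8.19), 16.9-fold higher (11.4 to 25.9). Its 166 UMIs lay in 44 of 331 ILCpro_KO cells, and after thinning it was found in 6.65% (4.21 to 9.89) against 0.739% (0.382 to 1.29), with 0 of 268 ILCpro_KO background cells (3 counts would be 1.12% of cells with a UMI), and unthinned in 13.3% and 1.41%. Ifitm1, an interferon-inducible membrane gene, stood at 71.4 (59.3 to 85.3) against 9.56 CPM (7.09 to 12.6), and Ccnd2, which encodes cyclin D2, at 771 (729 to 813) against 258 (244 to 272). Gpr171, a G protein-coupled receptor gene, stood at 244 against 72.5 CPM, and Rgs18, a regulator of G protein signalling, at 146 (129 to 166) against 48.8. Tsc22d3, a glucocorticoid-induced gene, stood at 80.2 (67.4 to 94.8) against 21.2 CPM. Of the genes in this paragraph, Bhlhe41 and Ifitm1 reached the minimum only through ILCpro_KO and so had to be high.

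Several higher values rested on few cells. Car1, an erythroid carbonic anhydrase, stood at 60.3 against 10.9 CPM, but its 103 UMIs lay in 4 ILCpro_KO cells and 44.7% of them in 1. Pf4, a platelet factor of megakaryocytes, had 38 UMIs in 3 cells, 84.2% of them in 1 cell, and its log2 ratio of 1.61 became 0.38 without the highest cell of each library. Car2, a related anhydrase, stood at 125 against 48.2 CPM with 26.2% of its UMIs in 1 cell. These are the 3 of 5 compared erythroid and megakaryocyte genes that were at least 2-fold higher, beside 0.953% of all compared genes. Pf4 reached the minimum only through ILCpro_KO and so had to be high. The rule had removed only 1 ILCpro_KO cell for haemoglobin.

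No compared gene of the S phase or the G2 and M phase list reached 2-fold on the log2 scale with 10 CPM added. Over all compared genes 0.820% were lower and 0.953% higher by that much. Ccnd2, a cyclin gene in neither list, was higher, as given above. Of 16 S phase genes 0 differed by 2-fold, with a median log2 ratio of 0.38 that turned to -0.02 in the cells with 0 UMIs of every rule gene, and of 15 compared G2 and M phase genes 0 differed, with a median of 0.43. Mcm5, a subunit of the replicative helicase, stood at 124 (108 to 142) against 61.9 CPM (55.4 to 69.1), and Ccnb1, the mitotic cyclin, at 52.7 against 22.8. Their plain folds were 2.00 and 2.32, which fell short of 2-fold once 10 CPM had been added. More than 1 UMI of the listed genes was found after thinning in 46.2% (40.8 to 51.8) of ILCpro_KO and 31.5% (29.2 to 33.8) of ILCpro_WT cells. In cells with 2000 to 8000 UMIs the G2 and M median was -0.35, so its sign depended on which depths were compared. In the 178 and 1113 non-cycling cells the ILC factor median was -1.45.

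**Figure D4:**
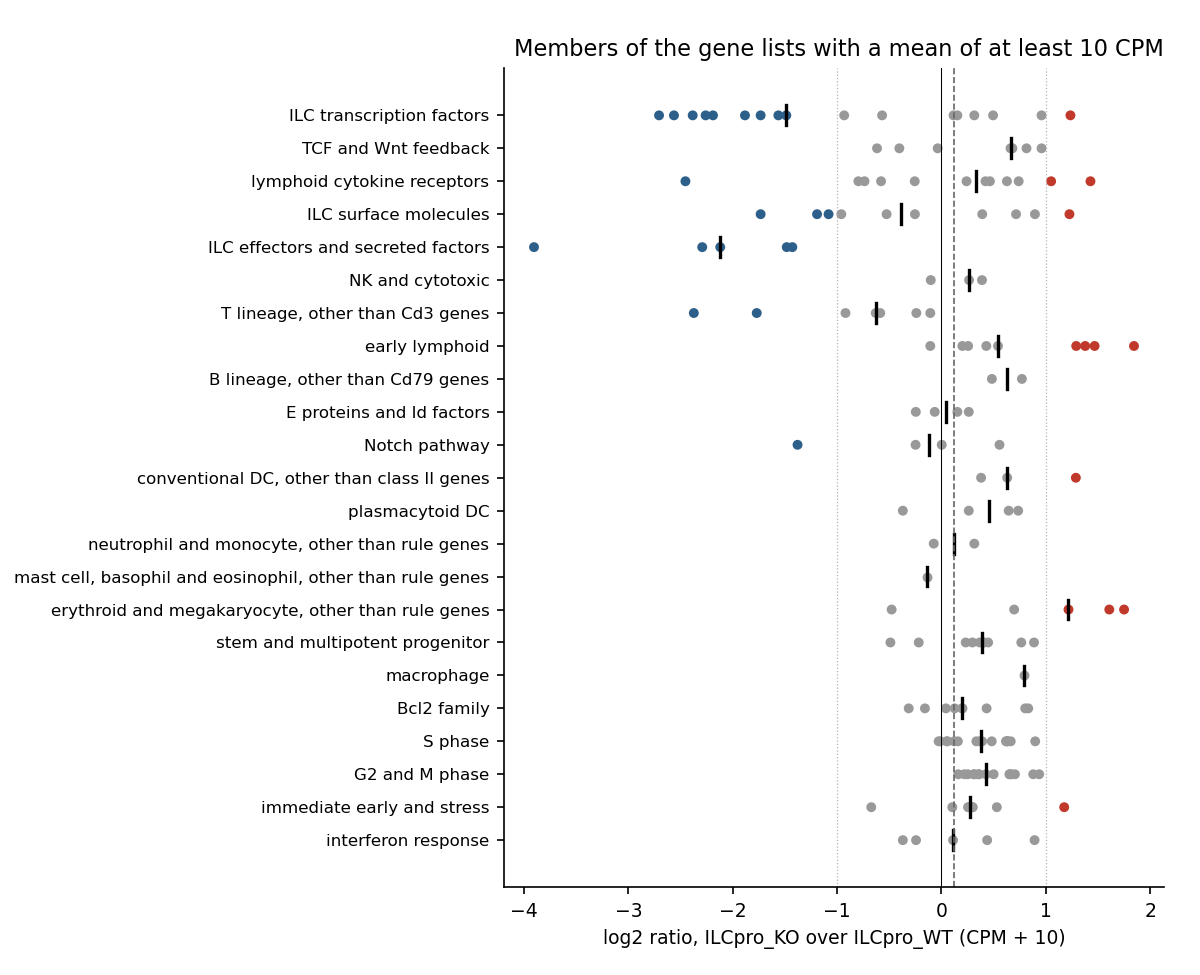
Log2 ratio of ILCpro_KO over ILCpro_WT (horizontal axis) for each compared member of 23 gene lists (rows); points are genes, blue at or below -1, red at or above 1, black bars are list medians, the dashed line is the median of all compared genes (0.12) and dotted lines mark 2-fold. ILC transcription factors have a median of -1.49 and early lymphoid genes of 0.54; 3 of the 5 ILC effectors reached the minimum only through ILCpro_WT.

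Among the remaining lists 1 compared gene, Fos, differed by 2-fold, while over all compared genes 0.820% were lower and 0.953% higher by as much. The B lineage list (2 compared, median 0.63), the plasmacytoid dendritic cell list (4, 0.45) and Apoe, the 1 compared macrophage gene (0.80), lay above the 0.12 of all genes. Of 9 compared Bcl2 family genes 0 differed by 2-fold (median 0.20), with the pro-death gene Bcl2l11 at 35.1 CPM (26.8 to 45.2) against 15.9 (12.6 to 19.7) and Bid at 56.8 against 27.5. Of 10 stem and multipotent progenitor genes 0 differed (median 0.38), with Meis1, a homeobox factor of stem cells, at 40.4 against 27.0 CPM. Of 5 interferon response genes 0 differed (median 0.11). The receptor adaptors Tyrobp and Fcer1g, used by natural killer and myeloid cells, stood at 898 against 683 and 412 against 443 CPM. The immediate early gene Fos was at least 2-fold higher, at 31.6 against 8.41 CPM, 1 of 8 compared genes of that list. It reached the minimum only through ILCpro_KO and so had to be high.

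Cleaning the gate changed which genes stood out at the high end more than at the low end. With no lineage rule 77 of 7560 genes (1.02%) were lower by 2-fold or more and 133 (1.76%) higher by as much. Of the lower genes 55 were called both before and after, which is 71.4% of the lower genes before and 88.7% of those after. Of the higher genes 48 were called both times, 36.1% of those before and 66.7% of those after. These counts hold the rule's own genes, 18 of the higher genes before and 1 after, which the rule lowers by construction. Among genes with a mean of at least 25 CPM before the rule, those that it moved most, besides its own, were Prg2 (log2 ratio 3.83 before and 0.34 after), Ngp (3.56 and 0.23), Camp (3.30 and 0.30), Ms4a3 (2.96 and 0.25) and Hba-a2 (1.99 and -0.18), which encode granule proteins, a granulocyte precursor membrane protein and a globin chain.

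ILC genes moved in both directions with the rule. Rora went from -2.98 before to -2.19 after, Tox2 from -3.29 to -2.56, Zbtb16 from -2.21 to -1.56 and Ccl5 from -2.27 to -1.43, all toward 0. Bcl11b, given above, and Ets1, from -1.81 to -2.26, moved away from it, as did Thy1, from -0.82 to -1.08. The kept ILCpro_KO cells held 96.6% of the library's Tox2 UMIs and 83.4% of its Rora UMIs, but 54.5% of its Gata3 and 46.8% of its Lmo4 UMIs, in 39.0% of all UMIs. Gata3 and Lmo4 transcripts were thus spread over kept and removed cells, while Tox2 and Rora lay mostly in the kept ones. Bhlhe41 went from 1.78 to 2.77 and Flt3 from 1.496 to 1.85, away from 0.

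**Figure D5:**
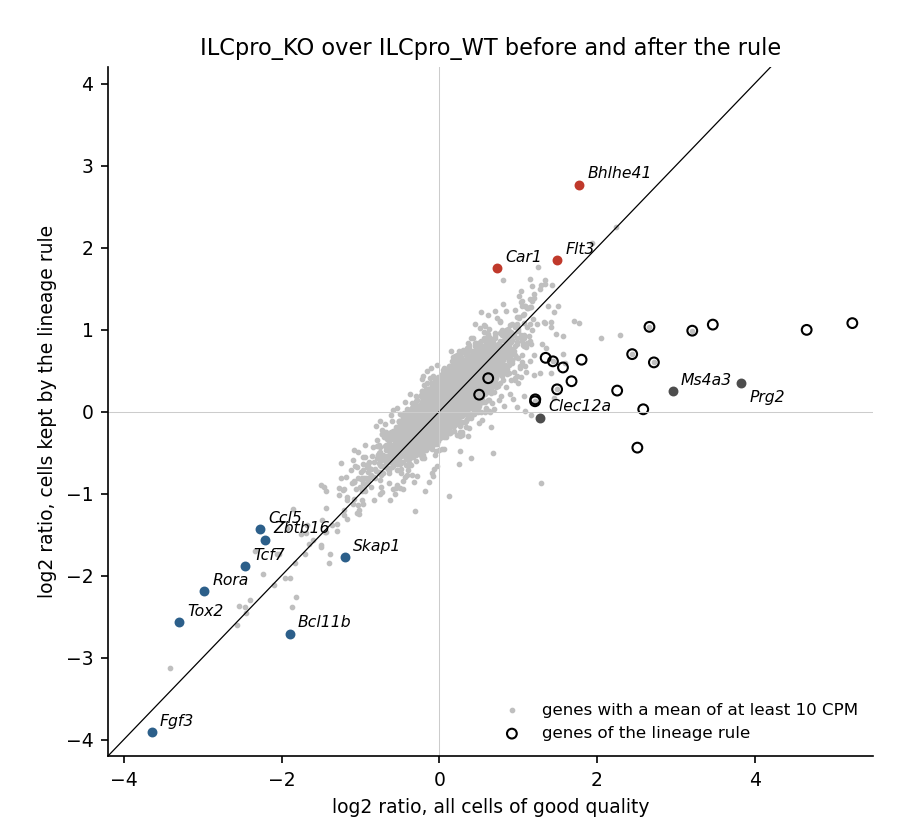
Log2 ratio of ILCpro_KO over ILCpro_WT in all cells of good quality (horizontal axis) and in the cells kept by the lineage rule (vertical axis); grey points are compared genes, open circles the 20 genes of the rule, coloured points named genes (blue and red where at least 2-fold after the rule) and the line marks equality. Granule genes such as Prg2 fall from 3.83 to 0.34, while Tox2 and Rora stay at -2.56 and -2.19.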

How the data were processed

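The counts deposited by the authors are whole-number UMI counts per gene and cell for each sample. Cell Ranger 2.0.1, STAR 2.5.1b, bcl2fastq 2.17 and the mm10 build are listed, without roles, per the submitters' processing notes; cell calling settings and strand are not given in the sources used here. Quality limits and the lineage rule were applied to raw UMIs, and counts were then summed per library and scaled to CPM with Python 3.11.15, numpy 2.4.6, scipy 1.17.1 and scanpy 1.11.5. The 10 CPM added before log2 understates changes of low genes. Genes were compared at a mean of at least 10 CPM and called at 2-fold; no test was run, since each genotype has 1 library. The calculation was tested on simulated data. Of the table's genes 27645 matched GENCODE vM21 by identifier. Scrublet scores were used only in an alternative, which removed 4 and 27 cells.

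The cells, the 23 gene lists and the tests were chosen with earlier results of these data known. Named are Tcf7; the 15 highest and 15 lowest log2 ratios at a mean of at least 25 CPM, leaving aside gene models and genes that are sex-linked, mitochondrial, ribosomal or part of the lineage rule; 28 genes whose shares were planned; up to 4 members a list with the largest ratio; and 5 genes each way moved most by the lineage rule among those with a mean of at least 25 CPM before it. Other list members, the genes of the sort, genes at 0 UMIs, Bcas1os2, Gm26551, Vdac1, Itgam, Mpeg1, Ncf1, Ctsh, Irf5 and Ly86 were named after their values were seen. The level of 1 listed factor is not reported here, though it stays in its list's counts.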

Additional observations from a re-analysis of the deposited data

How the results depend on the processing

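No paired analysis was possible because each genotype has 1 library, and for the same reason no replicate could be left out. The 62 genes at least 2-fold lower became 125 with 1 CPM added, 23 with 50 CPM added, 114 with totals that left out ribosomal protein and mitochondrial genes, 145 after thinning to 1000 UMIs and 184 in the 53 ILCpro_KO and 988 ILCpro_WT cells with 0 UMIs of every rule gene. The 72 higher genes became 193, 11, 45 (median-of-ratios size factors), 215 (thinned), 145 (non-cycling cells), 280 (0 UMIs of every rule gene) and 133 (no lineage rule), the first 2 values being for 1 and 50 CPM added. The ILC factor median of -1.49 became -1.27 with 50 CPM added, -1.23 in cells with 2000 to 8000 UMIs, -1.75 with no lineage rule and -1.81 with the rule applied after thinning, the last an alternative added after the data were seen. The Tcf7 log2 ratio of -1.88 became -1.575 with 50 CPM added, -1.63 in cells with 2000 to 8000 UMIs, -1.35 with 0 UMIs of every rule gene, -2.47 with no lineage rule and -2.26 with the rule applied after thinning. The cause was not tested, except that adding more CPM shrinks ratios and thinning or fewer cells adds counting scatter by construction. Of 51 named genes at least 2-fold apart, 50 kept their sign under the 18 settings tried (15 planned, 3 added after the data were seen), the exception being Bhlhe41 in cells without a Bhlhe41 UMI, and 28 stayed at least 2-fold apart. Depth limits genes under 1.76 CPM in ILCpro_KO and 0.574 CPM in ILCpro_WT, the level of 3 UMIs.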
